A study of Mus musculus with 15 samples.

Results

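Accessible chromatin of macrophages exposed to bacterial lipopolysaccharide (LPS) for 1 h was compared with that of untreated macrophages. Of the 15 libraries of the study, 6 entered the comparison, namely all 3 whose titles give LPS for 1 h and all 3 whose titles give no treatment. The LPS cells received 10 ng/ml for 1 h, and the untreated cells received none. Both groups were primary macrophages grown from the bone marrow of C57BL/6 mice in medium conditioned by L929 cells, harvested on day 7 of differentiation, and no genetic change is named for either. The assay was ATAC-seq, in which a transposase cuts and tags the DNA that it can reach, so that open regulatory elements are recovered as peaks of reads. The libraries are called triplicates without a statement that they came from separate mice or cultures. The p-values below therefore reflect library-to-library spread only, and this spread may be technical. Macrophages grown in this way are a model of resting, newly differentiated cells outside a tissue.

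LPS, a lipid of the outer wall of Gram-negative bacteria, is sensed by the receptor TLR4 together with CD14 and MD-2. The adaptors MyD88 and TRIF then activate NF-kB, AP-1 and interferon regulatory factors. In macrophages these factors bind mostly at enhancers and promoters that lineage factors such as PU.1 already keep open, and some elements open only after stimulation. Within the first hour this response is known for the primary genes, whose induction needs no new protein, while secondary genes follow later.

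Each library came with its own list of peaks on mouse genome build mm9. Read depth is unknown, so no counting error can be attached to the values, and where a list lacks a peak the site may still be open below the caller's limit. Without an mm9 annotation, regions are named by position (first base counted as 1), the genes and gene parts they lie in are not stated, and marker genes could not be used to check the labelled cell type. Merging the peaks of the 6 lists wherever they overlapped gave 91694 regions outside the mitochondrial genome, and their median width was 1575 bp.

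The total extent of open chromatin did not separate the groups. The LPS 1 h lists held 71260, 78212 and 52447 peaks, against 60140, 73511 and 62180 in untreated cells. They covered 107.5, 113.3 and 84.0 Mb at LPS 1 h, against 84.4, 119.5 and 97.9 Mb in untreated cells. The groups overlapped in both measures, with means of 67306 ± 13330 peaks at LPS 1 h and 65277 ± 7203 in untreated cells (SD, n = 3 each, exact two-sided permutation p = 0.9). The difference in covered length was 0.972 Mb (exact two-sided permutation p = 1). It lay below 0 with lists of equal length, where it was -0.45 Mb. It also turned without LPS 1 h replicate 1 or 2 and without untreated replicate 1 or 3, where it was -1.98, -4.89, -7.14 and -0.367 Mb. The difference in peak number was -3424 without LPS 1 h replicate 2 and -539 without untreated replicate 1. LPS 1 h replicate 3 and untreated replicate 1 had the shortest list of their groups and the smallest share of peaks at the often shared score of 3100, 2.64% and 2.74%.

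Very long peaks were the one summary, of 5 compared, in which the groups did not overlap. Peaks of 10 kb or more numbered 92, 85 and 47 at LPS 1 h, against 17, 37 and 20 in untreated cells. Every LPS 1 h library lay above every untreated one, and their mean was 3.03 times the untreated mean (exact two-sided permutation p = 0.1, the smallest that 3 libraries against 3 allow, and 0.5 after Benjamini-Hochberg adjustment over the 5 summaries). Peaks of 5 kb or more did not follow this pattern, with 499, 539 and 289 at LPS 1 h and 210, 685 and 376 in untreated cells. Cutting every list to the 52447 highest-scoring peaks left all of these long peaks in place.

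**Figure D1:**
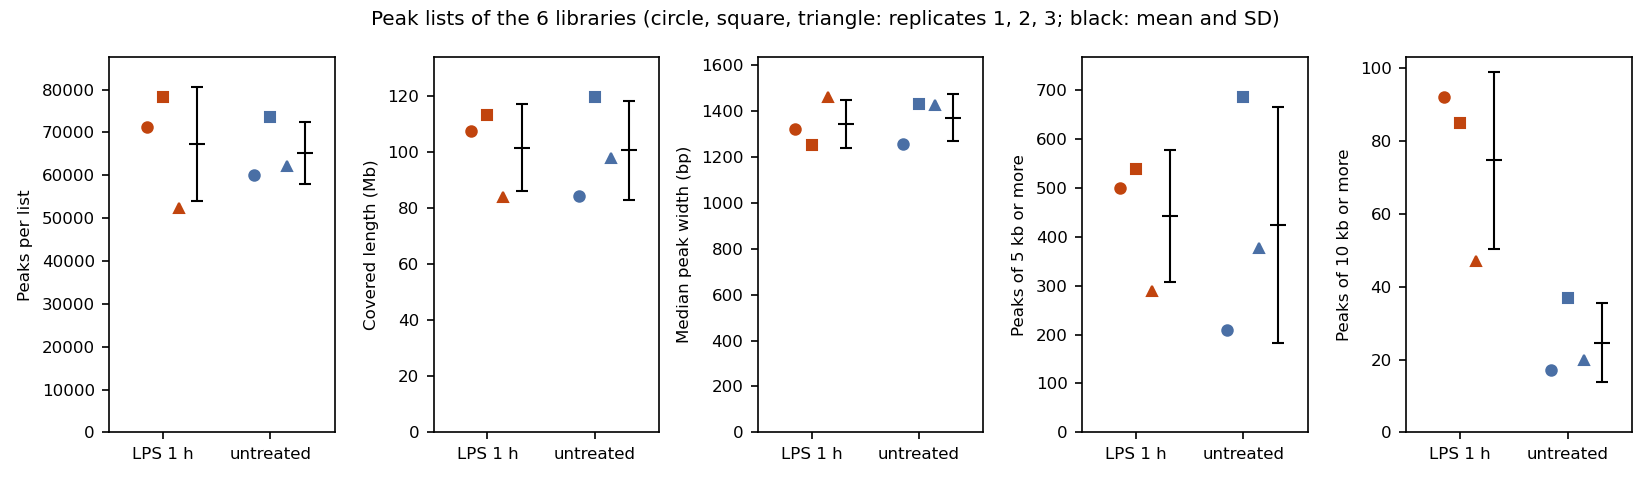
Number of peaks, covered length in Mb, median peak width in bp and number of long peaks in each of the 3 LPS 1 h and 3 untreated lists, with the mean and SD in black. Only for peaks of 10 kb or more do all LPS 1 h lists (47 to 92) lie above all untreated lists (17 to 37).

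The location of open chromatin separated the groups more clearly than its amount. With lists of equal length, pairs of LPS 1 h lists shared 0.642 to 0.695 of the bases that either covered (Jaccard index), pairs of untreated lists 0.639 to 0.672, and pairs of 1 LPS 1 h and 1 untreated list 0.553 to 0.607. Pairs within a group thus did not overlap pairs between groups, and the excess within groups was 0.0789 (exact one-sided permutation p = 0.1, the smallest possible). In the full lists the ranges met, since the short list of LPS 1 h replicate 3 had an index of 0.568 with that of replicate 2. Across the 38431 regions with a peak in all 6 lists, ranks of the peak scores correlated at 0.919 to 0.944 between LPS 1 h libraries, at 0.860 to 0.948 between untreated libraries and at 0.723 to 0.842 between the groups. These are correlations across regions of shared genome, which are not independent replicates.

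Regions open in every library formed the largest class. A peak was called in all 6 lists in 38431 regions (41.9%), and 17115 regions (18.7%) had a peak in 1 list only. A region was counted as gained at 1 h when it had a peak in 3 of 3 LPS 1 h lists and in 0 of 3 untreated lists, and as lost in the reverse case. By this rule 1902 regions were gained, 2.07% of all regions, and 1305 were lost, 1.42% of all regions. No single region can pass a test of 3 libraries against 3, so the counts describe these libraries. A further 4451 regions had a peak in 2 LPS 1 h lists and in no untreated list, against 2934 with a peak in 2 untreated lists and in no LPS 1 h list. The counts moved with single libraries. Gained regions numbered 6072 without LPS 1 h replicate 3 and 2913 without untreated replicate 2. Lost regions numbered 2712 without LPS 1 h replicate 2, 3437 without untreated replicate 1 and 1976 without untreated replicate 3. In the first 2 of these cases they outnumbered the gained regions, which were then 2101 and 2005.

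**Figure D2:**
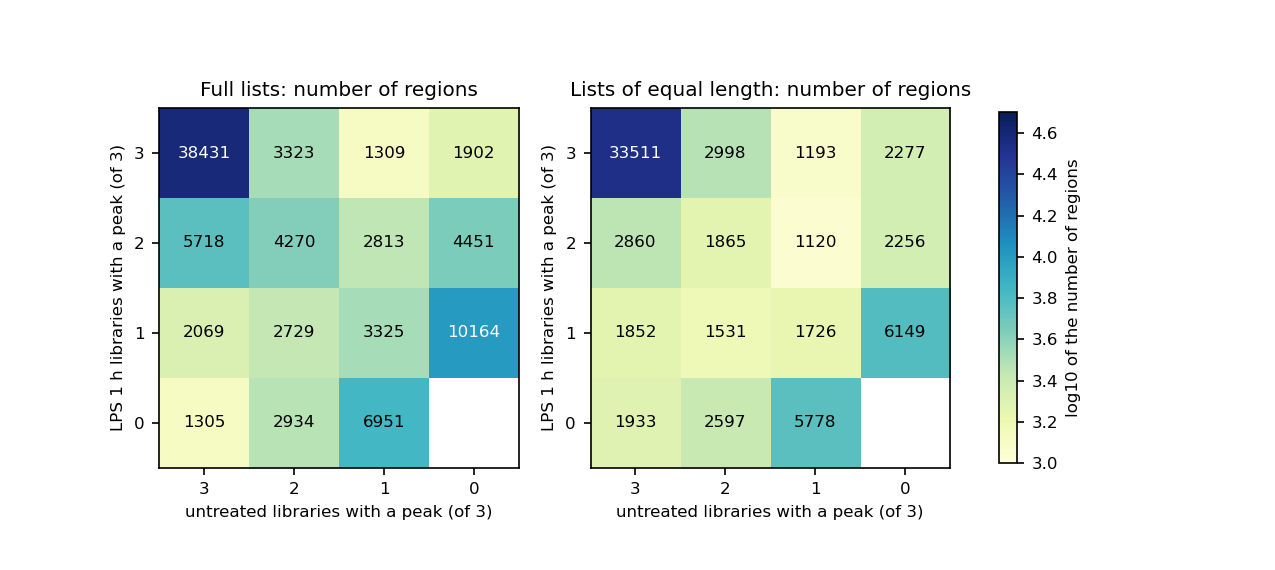
Number of merged regions by how many of the 3 LPS 1 h lists (rows) and of the 3 untreated lists (columns) held a peak, for full lists and for lists cut to 52447 peaks, with colour on a log10 scale. The corner cells hold the 1902 gained and 1305 lost regions of the full lists and the 2277 gained and 1933 lost regions of the equal lists.

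In the full lists, strong peaks were more frequent among gained than among lost regions, although the 2 sets overlapped. These lists differ in length, which bears on where a peak can be missing. The strengths were not compared again with lists of equal length, so the part that list length plays was not tested. The strength of a peak was expressed as its percentile among all peaks of its list, where 100 is the highest score. In the LPS 1 h lists the median gained region stood at percentile 46.0, 53.4 and 25.3. In the untreated lists the median lost region stood at percentile 14.998, 29.2 and 29.4. The weakest of the 3 peaks reached percentile 50 in 255 gained regions (13.4%) and in 13 lost regions (0.996%), and it reached percentile 75 in 21 gained regions and 1 lost region. With lists of equal length 2277 regions were gained (3.27% of 69646) and 1933 were lost (2.78%). Of the 1902 gained regions 1323 (69.6%) were also gained in the equal lists, and of the 1305 lost regions 400 (30.7%) were also lost there. Conversely, 58.1% of the gained and 20.7% of the lost regions of the equal lists were called in the full lists.

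The 8 gained regions named here were those gained in the full and in the equal lists whose weakest peak ranked highest. The first lies at chr16:84715575-84723935. It had peaks of 8286, 6085 and 6032 bp in the 3 LPS 1 h libraries, all at a score of 3100, and no peak in any untreated library. Many peaks of each list share the score of 3100, and the highest score was 3233 in all 6 lists. The next gained region lies at chr3:36351135-36353604, at percentile 99.9, 99.7 and 91.2 of the 3 LPS 1 h lists. Both are thus among the strongest open sites of the stimulated cells although none was called in resting cells. The region at chr4:134862217-134864593 reached percentile 89.7, 90.9 and 86.5. That at chr2:140671982-140674566 reached percentile 91.1, 92.7 and 84.1. The region at chr1:137709063-137713129 was wide, with peaks of 3777, 4067 and 3921 bp, and reached percentile 83.6, 89.5 and 80.8. The others lie at chr4:117820967-117822865, at chr18:11885954-11887556 and at chr16:24595035-24596748, and their weakest peaks stood at percentile 79.0 to 81.5. In the libraries of other times, which played no part in the choice, 7 of these 8 regions had a peak in all 9 LPS lists. The region on chromosome 18 lacked one in 1 of the 3 lists at 30 min.

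Among lost regions the same rule named weaker sites. The region at chr4:19782505-19784329 came first, at percentile 76.1, 78.4 and 92.2 of the 3 untreated lists, with no peak in any LPS 1 h list. It had a peak in 3 of 3 lists at 30 min and in none of the 6 lists at 2 h and 4 h. The region at chr13:113222837-113224426, at percentile 57.0, 53.8 and 61.0 of the untreated lists, had the same course. The lost region at chr13:103471996-103473807 went the other way. It stood at percentile 55.8, 74.7 and 60.2 of the untreated lists and had a peak in 2 of 3 lists at 30 min and again in 3 of 3 at 2 h and at 4 h. The region at chr9:58739384-58741027 likewise had a peak in 3 of 3 lists at 30 min, in 2 of 3 at 2 h and in 3 of 3 at 4 h. The region at chr1:186262711-186264397 had a peak in 2 of 3 lists at 30 min, in 0 of 3 at 2 h and in 1 of 3 at 4 h. The remaining named losses, at chr3:87058891-87060277, at chr3:60936511-60938081 and at chr6:82754298-82756125, had a peak in 3 of 3 lists at 30 min and in 2 of 3 at 4 h. At 2 h they had one in 1, 0 and 2 of 3 lists, in this order. Loss at 1 h was therefore lasting at some of these sites and passing at others, as far as called peaks show.

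Presence of a peak leaves out regions that are open in both states but to a different degree. For the regions with a peak in all 6 lists, the score of the strongest peak was ranked within each list over these same regions, so that lists of different length were ranked over one set of regions. The rank is given as a percentile, where 100 is the highest score among the 38431 regions. From the test, 1001 regions with a score of 3100 or more in all 6 lists were left out. With limma on the normal scores of these ranks (Benjamini-Hochberg adjusted p under 0.05), 2200 of 37430 regions ranked higher at LPS 1 h (5.88%) and 2062 ranked lower (5.51%). The regions that rose stood at a median percentile of 72.5, 74.8 and 72.4 in the LPS 1 h libraries, against 33.4, 35.2 and 32.4 in the untreated libraries. The regions that fell stood at 38.3, 36.6 and 40.9 at LPS 1 h, against 68.0, 67.9 and 72.2 in untreated cells. These medians are of regions chosen by the same test and only describe the size of the change. A rank is relative, so regions that rise push others down, and the near balance of the 2 directions is no measure of the balance of opening and closing.

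Calls were spread unevenly over the mean rank. Of regions with a mean percentile of 40 to 60 over the 6 libraries, 8.75% rose and 7.57% fell, and of those at 60 to 80, 8.19% rose and 7.80% fell. Among the weakest, with a mean percentile under 20, 1.45% rose and 1.98% fell, and among those over 80 the shares were 3.59% and 3.77%. The mean is over the same 6 libraries, and a region with a mean near either end cannot move far, so this unevenness is partly set by the classes. Libraries with the same replicate number deviated together in this measure, and with the replicate number as a block the counts were 3575 higher (9.55%) and 3860 lower (10.3%). Nearly all calls were shared, with 2199 of the 2200 higher and 2059 of the 2062 lower regions called in both fits. Leaving out single libraries lowered the counts by more than 1.5 times in several cases. Higher regions numbered 1224, 981 and 1312 without LPS 1 h replicates 1, 2 and 3, and 1424 without untreated replicate 2. Lower regions numbered 894, 754 and 1254 without LPS 1 h replicates 1, 2 and 3, and 1237 and 857 without untreated replicates 1 and 2.

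**Figure D3:**
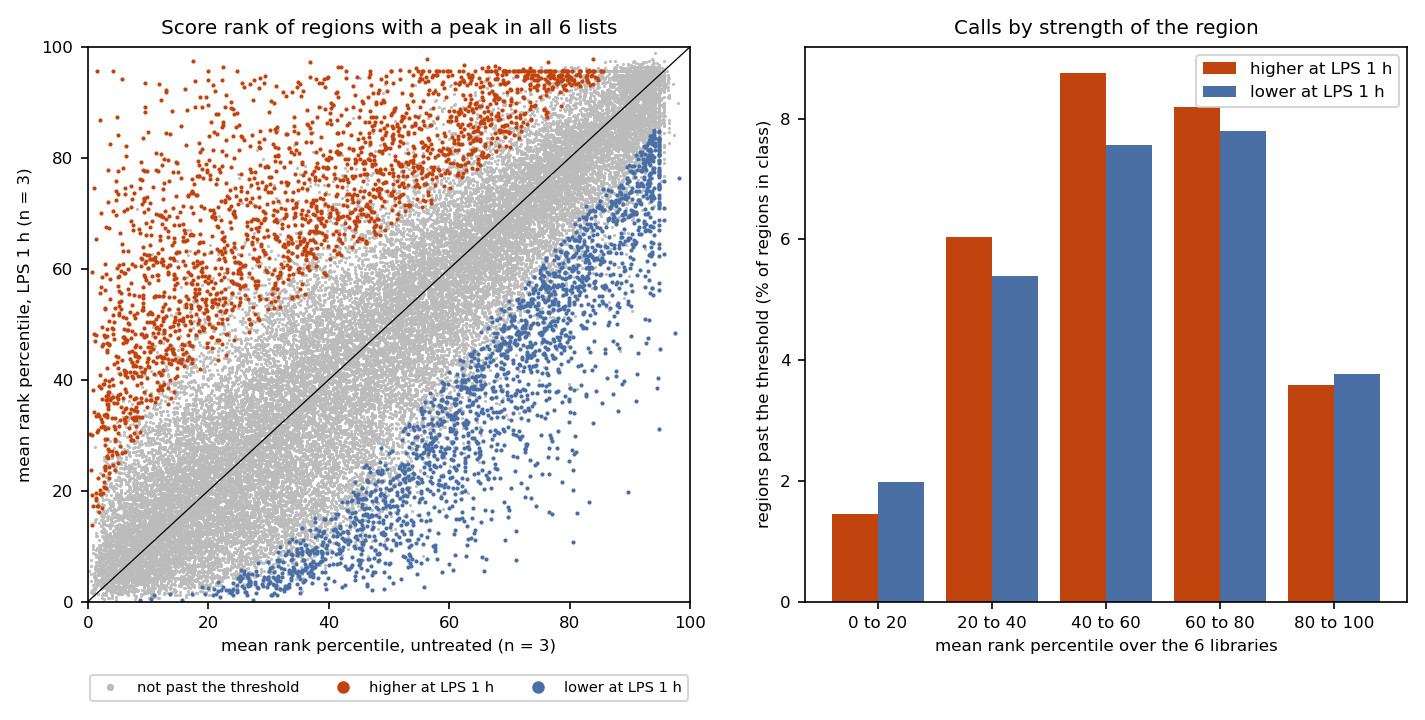
Left, mean rank percentile of each region with a peak in all 6 lists at LPS 1 h (vertical axis) and in untreated cells (horizontal axis), with regions past an adjusted p of 0.05 in colour. Right, share of regions past the threshold by mean percentile over the 6 libraries, highest for higher regions at percentiles 40 to 60 (8.75%) and for lower regions at percentiles 60 to 80 (7.80%).

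The regions with the largest rise in rank stood near the top after 1 h, and 4 of the 5 were near the bottom of every list in resting cells. The region at chr11:44203118-44204823 stood at percentile 94.7, 94.4 and 97.9 at LPS 1 h, against 0.0338, 4.42 and 0.277 in untreated cells (difference 4.37 ± 0.39 in normal score, SE, limma adjusted p = 0.00148). Its 3 LPS 1 h peaks had the shared score of 3100, which limits how high they can rank. The region at chr16:84700474-84715420 stood at 94.7, 94.4 and 97.9 at LPS 1 h, against 4.41, 2.69 and 5.32 in untreated cells (difference 3.50 ± 0.16, SE, limma adjusted p = 0.000361). It adjoins the strongest gained region. The region at chr19:10919155-10921116 stood at 79.7, 94.4 and 86.5 at LPS 1 h, against 4.44, 0.902 and 0.563 in untreated cells (difference 3.38 ± 0.29, SE, limma adjusted p = 0.00125). The region at chr12:8391273-8394677 stood at 94.7, 94.4 and 93.6 at LPS 1 h, against 3.54, 11.9 and 1.46 in untreated cells (difference 3.30 ± 0.24, SE, limma adjusted p = 0.000915). The region at chr4:144872414-144874683 stood at 94.7, 94.4 and 99.99 at LPS 1 h, against 36.1, 19.6 and 11.8 in untreated cells (difference 3.13 ± 0.54, SE, limma adjusted p = 0.0113). The limit at 3100 also touches the region on chromosome 16 in all 3 LPS 1 h libraries, those on chromosomes 12 and 4 in 2 and that on chromosome 19 in 1. All 5 passed the threshold under each alternative that gave them a value.

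Apart from that on chromosome 19, these 5 regions stood at percentile 76.0 or above in every library at 2 h and 4 h. Over these 2 times the percentiles were 92.9 to 99.4 on chromosome 16 and 92.9 to 97.7 on chromosome 4. On chromosome 12 they were 92.9 to 95.1 at 2 h and 99.8, 89.4 and 76.0 at 4 h. On chromosome 11 the percentiles were 26.3, 63.1 and 63.0 at 30 min, 93.0, 92.9 and 95.1 at 2 h, and 93.5, 99.7 and 94.2 at 4 h, so that the high rank was kept. On chromosome 19 they were 40.6, 64.4 and 63.6 at 30 min. At 2 h no peak was called there in replicate 2, and at 4 h none in replicate 1, while replicate 2 stood at percentile 8.39 and replicate 3 at 93.0. The libraries of the later times thus disagreed at this site.

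The regions with the largest fall in rank ended at different levels at LPS 1 h. The rank test took only regions with a peak in every LPS 1 h and untreated list. None of these regions could therefore vanish at LPS 1 h. The region at chr10:59756222-59770048 stood at percentile 50.5, 39.3 and 55.6 at LPS 1 h, against 97.5, 99.95 and 95.1 in untreated cells (difference -2.34 ± 0.38 in normal score, SE, limma adjusted p = 0.00906). Its untreated scores were 3100, 3226 and 3100, so the limit touches this fall too. The region at chr14:104344208-104346098 stood at 5.30, 1.68 and 0.691 at LPS 1 h, against 51.6, 40.5 and 75.5 in untreated cells (difference -2.23 ± 0.33, SE, limma adjusted p = 0.00666). Both passed under each alternative that gave them a value, and on chromosome 14 no peak was called in 2 of 3 lists at 2 h and in 1 of 3 at 4 h. The other 3 of the 5 missed the threshold under some alternatives. At chr15:34285799-34288606 the percentiles were 0.0104, 2.34 and 13.6 at LPS 1 h, against 44.0, 64.2 and 68.2 in untreated cells (difference -2.51 ± 0.60, SE, limma adjusted p = 0.0337). Over its alternatives the adjusted p of limma ran from 0.00552 to 0.108, the highest without untreated replicate 2, where the difference was -2.47. It also missed the threshold without LPS 1 h replicate 2 (difference -2.65), untreated replicate 1 (-2.66) or untreated replicate 3 (-2.38), and with the logit of the rank share in place of the normal score (limma adjusted p = 0.0861). At chr16:23373978-23377153 the percentiles were 49.3, 18.3 and 53.5 at LPS 1 h, against 89.2, 99.96 and 95.1 in untreated cells. The limma adjusted p was 0.0242 and ran from 0.0175 to 0.0859 over 12 alternatives, the highest without LPS 1 h replicate 2, where the difference was -2.04. It also missed the threshold without LPS 1 h replicate 1 (difference -2.47) or 3 (-2.37), and with the logit of the rank share (limma adjusted p = 0.0611). At chr3:79338251-79344480 the percentiles were 42.4, 1.21 and 4.20 at LPS 1 h, against 87.3, 69.5 and 87.1 in untreated cells. Its limma adjusted p was 0.0204 and ran from 0.00276 to 0.0611 over 9 alternatives, the highest without untreated replicate 1, where the difference was -2.17. It also missed the threshold without LPS 1 h replicate 2 (difference -1.88) or 3 (-1.93). The groups did not overlap at any of the 5 regions, which the choice of regions required.

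Fewer regions passed the threshold for width than for rank. The 2 measures differ in scale and spread, so these counts do not show which kind of change was more frequent. The width covered by peaks was tested in the same 38431 regions, with each library centred on its own median (limma on log2 width, Benjamini-Hochberg adjusted p under 0.05). At LPS 1 h 379 regions were wider (0.986%) and 200 were narrower (0.52%). Wider regions had a median covered width of 3552, 3670 and 3199 bp in the LPS 1 h libraries, against 1579, 1858 and 1674 bp in the untreated libraries. Narrower regions had 1626, 1636 and 1567 bp at LPS 1 h, against 2799, 3290 and 3093 bp in untreated cells. Where both width and rank passed the threshold they moved the same way, with 1 exception. Of the 379 wider regions 180 (47.5%) ranked higher and 0 ranked lower, and of the 200 narrower regions 66 (33.0%) ranked lower and 1 ranked higher. Both measures come from the same peaks, so they are not independent. Without centring there were 236 wider and 131 narrower regions, and with regions of exactly 1 peak in every list there were 134 and 64. Wider regions numbered 158, 194 and 238 without LPS 1 h replicate 1, LPS 1 h replicate 2 and untreated replicate 1. Narrower regions numbered 111 without LPS 1 h replicate 1, and 107, 86 and 72 without untreated replicates 1, 2 and 3. Without LPS 1 h replicate 2 the 194 wider regions were fewer than the narrower ones, then 217.

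The largest widening was that of the region at chr16:84700474-84715420 described above. Its peaks covered 14945, 14875 and 14315 bp at LPS 1 h, against 1041, 1598 and 1081 bp in untreated cells, 12.3 times as much after centring (log2 difference 3.62 ± 0.13, SE, limma adjusted p = 1.89e-05). For the other times the full length of the peaks at a region is given, which can run past its bounds (14947 bp here). This length was 7335, 14981 and 12062 bp at 30 min. At 2 h and 4 h it was between 14621 and 17025 bp, so the wide form was kept. The region at chr3:51048950-51062881 covered 13666, 11687 and 13191 bp at LPS 1 h, against 1321, 2506 and 2008 bp in untreated cells (log2 difference 2.79 ± 0.17, SE, limma adjusted p = 0.000127). The full length of its peaks was 2628, 13286 and 9300 bp at 30 min, 5016, 7732 and 10471 bp at 2 h, and 1531, 1632 and 0 bp at 4 h. The region at chr2:68721398-68729345 covered 7349, 5860 and 5123 bp at LPS 1 h, against 723, 1080 and 956 bp in untreated cells (log2 difference 2.76 ± 0.16, SE, limma adjusted p = 0.000109). At 2 h the full length of its peaks was 8647, 13141 and 8220 bp. That exceeds the 7948 bp of the region, so these lengths are not the same measure as the widths at 1 h. Another pair of regions on chromosome 2 lost the call without single libraries. Each such fit merged the remaining lists anew, so its difference can belong to a region with other bounds. The smaller differences given for this pair are thus not differences of the widths printed here. At chr2:83610204-83636149 peaks covered 24601, 25223 and 9357 bp at LPS 1 h, against 2167, 1578 and 1363 bp in untreated cells (log2 difference 3.45 ± 0.36, SE, limma adjusted p = 0.00323). Over 10 alternatives the adjusted p of limma ran from 0.000237 to 0.573, the highest without LPS 1 h replicate 1, where the log2 difference was 0.70, and the difference was 0.62 without LPS 1 h replicate 2. At chr2:102647341-102686159 they covered 35621, 38434 and 13873 bp at LPS 1 h, against 1513, 5389 and 2957 bp in untreated cells. The limma adjusted p there was 0.0102 and ran from 0.00236 to 0.177 over 11 alternatives, the highest without LPS 1 h replicate 2, where the log2 difference was 1.46.

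The largest narrowing was at the region at chr10:59756222-59770048, which also fell in rank. Peaks covered 1962, 1155 and 1813 bp there at LPS 1 h, against 13549, 10635 and 11540 bp in untreated cells (log2 difference -2.86 ± 0.21, SE, limma adjusted p = 0.000552). The adjoining region at chr10:59739470-59755135 had peaks of at most 3463, 3444 and 1640 bp at LPS 1 h, against 8660, 8898 and 11955 bp in untreated cells. This neighbour was picked after its values were seen. The covered width in the first region and the widest peak in the second were thus smaller in every LPS 1 h library than in any untreated one. The 3 libraries at 30 min differed in the adjoining region, with a widest peak of 33662, 2037 and 16302 bp. The peaks of 33662 and 16302 bp are longer than this region and run past its bounds. The region at chr10:80827174-80833283 covered 1493, 2044 and 1597 bp at LPS 1 h, against 4257, 6110 and 5069 bp in untreated cells (log2 difference -1.56 ± 0.15, SE, limma adjusted p = 0.0016). The region at chr10:126971509-126976212 covered 1386, 1118 and 1237 bp at LPS 1 h, against 3595, 4704 and 2881 bp in untreated cells (log2 difference -1.53 ± 0.17, SE, limma adjusted p = 0.00489). Of the other narrowed regions named by the rule, that at chr12:107058922-107062752 had a limma adjusted p of 0.00348, which ran from 0.0025 to 0.704 over 11 alternatives. The log2 difference was -1.54, and it was -0.53 and -0.37 without untreated replicates 2 and 3. Its widths were 1261, 980 and 863 bp at LPS 1 h, against 3070, 3010 and 2991 bp in untreated cells. The 2 smaller differences are those of regions merged anew from the remaining lists, not of these widths. That at chr13:24890039-24905896 had a log2 difference of -1.49 and a limma adjusted p of 0.0112. This p ran from 0.00216 to 0.619 over 11 alternatives, the highest without untreated replicate 2. There the log2 difference was -0.26, again for a region merged anew. It also missed the threshold without LPS 1 h replicate 1 (log2 difference -1.39) or untreated replicate 1 (-1.35), with lists of equal length (-1.45) and with a score of 100 or more (-1.52).

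Regions with very long peaks in one group only were mostly on the side of LPS. Of 144 regions with a peak of 10 kb or more in any of the 6 lists, 26 (18.1%) had one in all LPS 1 h lists and in no untreated list, and 2 (1.39%) showed the reverse. At 5 kb or more the counts were 58 (4.92%) and 39 (3.31%) of 1178 regions. The regions named next were chosen after their values were seen, from those whose shortest peak in the group with long peaks was longest. The region at chr12:86938279-86990735 had a widest peak of 48392, 52026 and 47630 bp at LPS 1 h, against 2590, 3065 and 2723 bp in untreated cells. This span held 1 or 2 peaks per library at LPS 1 h, against 5 or 6 separate peaks in untreated cells. The wide form was brief. At 30 min replicate 2 had a peak of 47446 bp and replicates 1 and 3 had at most 3346 and 3515 bp, and at 2 h and 4 h no peak there exceeded 4263 bp. The region at chr5:99639428-99684790 had 45363, 36752 and 38475 bp at LPS 1 h, against 2210, 4741 and 4842 bp in untreated cells. It was as wide at 30 min, with 35271, 42713 and 44523 bp, and had returned to 4217, 5820 and 6916 bp at 2 h. The region at chr13:43879338-43908339 followed a like course, with 29002, 25525 and 28781 bp at LPS 1 h, against 3523, 3566 and 2122 bp in untreated cells. At 30 min it had 8904, 25596 and 28747 bp, and at 2 h at most 3974 bp.

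Other regions stayed wide for longer. At chr11:16864678-16909837 the widest peak was 44797, 44774 and 42714 bp at LPS 1 h, against 2762, 5078 and 3160 bp in untreated cells. It was 38534, 44541 and 42976 bp at 30 min and 27666, 42926 and 16149 bp at 2 h, and at 4 h it did not exceed 8872 bp. The region at chr12:112678713-112698686 had 19650, 19827 and 19480 bp at LPS 1 h, against 4168, 3968 and 4304 bp in untreated cells. It had 19360 to 19565 bp at 30 min, 19691 to 19866 bp at 2 h and 6584 to 12047 bp at 4 h. At chr10:18714677-18736529 the widest peak was 21772, 21301 and 15828 bp at LPS 1 h, against 2099, 2809 and 2163 bp in untreated cells, and still 22104, 22290 and 11697 bp at 4 h. The 2 regions that were long only in untreated cells lie at chr7:149557355-149581759 and at chr19:3901452-3915717. On chromosome 7 the widest peak was 4783, 6155 and 6032 bp at LPS 1 h, against 11589, 24405 and 17650 bp in untreated cells. On chromosome 19 it was 7746, 6535 and 5741 bp at LPS 1 h, against 10669, 13200 and 13695 bp in untreated cells.

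Regions that were gained, higher in rank or wider lay near each other, and apart from those that were lost, lower in rank or narrower. Another gained region lay within 50 kb of 36.9% of gained regions, 38.5% of regions that rose in rank and 48.8% of wider regions, against 16.7% of all regions. For lost regions, regions that fell in rank and narrower regions the shares near a gained region were 8.20%, 10.5% and 7.5%. The mirror image held for loss. Another lost region lay within 50 kb of 16.6% of lost regions, 25.02% of regions that fell in rank and 28.5% of narrower regions, against 5.94%, 5.95% and 4.75% of gained, higher and wider regions and 11.1% of all regions. Gained and lost regions had no peak in one of the groups, whereas the ranked regions had a peak in every list, so the 2 kinds of call do not share a region. These shares are descriptions, and neighbouring regions are not independent.

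**Figure D4:**
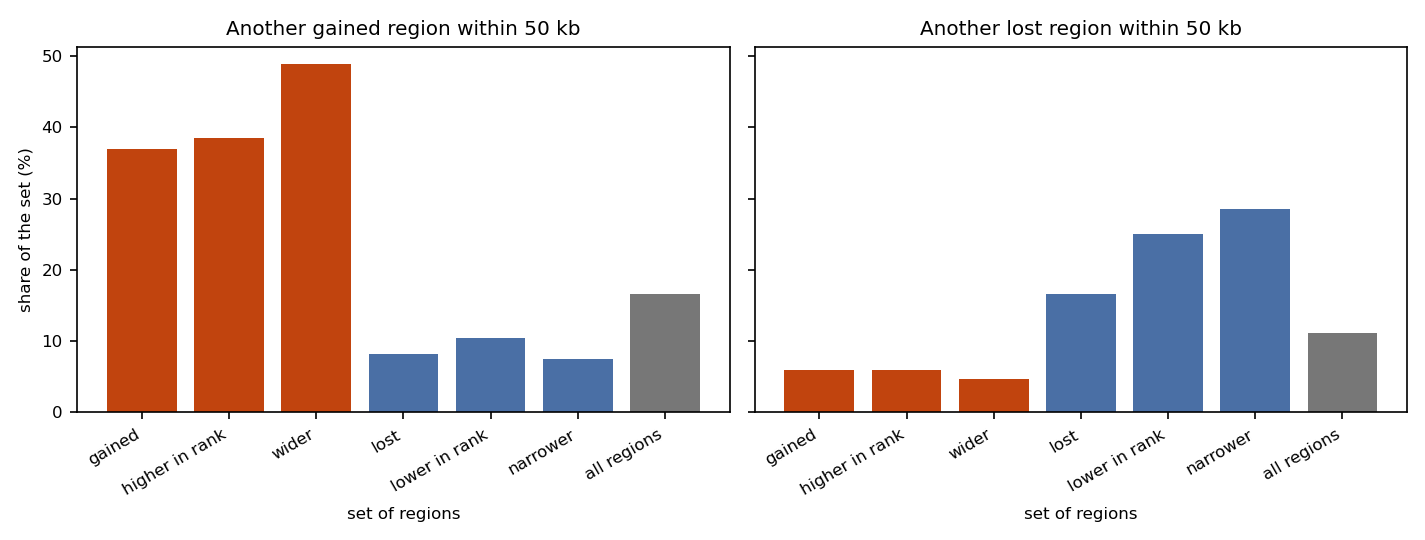
Share of each set of regions, in percent, that has another gained region (left) or another lost region (right) within 50 kb. Gained, higher and wider sets are in red, lost, lower and narrower sets in blue, and all merged regions in grey. Gained regions lay near 48.8% of wider and 7.5% of narrower regions, and lost regions near 4.75% of wider and 28.5% of narrower regions.

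Some stretches were dense in changed regions, and these are named after their values were seen. With gaps of at most 50 kb, gained regions formed 91 runs of 3 or more, which held 350 of them (18.4%), while lost regions formed 10 such runs, which held 31 (2.38%). A larger set forms more runs at a fixed gap, and gained regions (1902) outnumbered lost ones (1305). These counts are therefore not directly comparable. The longest run of gained regions, at chr10:18738325-18940692, held 14 gained regions among 42 regions in 202 kb, with 0 lost and with 5 of its 9 rank-tested regions higher. It starts next to the region at 18714677 that widened to more than 15 kb. The next, at chr4:53414131-53592869, held 11 gained regions among 38, and 7 of its 10 rank-tested regions were higher. At chr2:68732784-68842667 there were 10 gained regions among 20. At chr6:16776088-16829448, 7 of the 9 regions were gained and none had a peak in all 6 lists, within 53.4 kb. Falling ranks also clustered. At chr10:59714576-59862287, 9 of 15 rank-tested regions fell and 0 rose, with 1 region gained, a span that includes the narrowed stretch described above. At chr10:126921401-127088230 it was 9 of 15 with 0 higher, and at chr11:114740292-114867402 it was 8 of 18 with 0 higher and 2 lost. Of the lost regions, the longest run was 4, at chr18:53303833-53396637.

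The 9 libraries at 30 min, 2 h and 4 h, which played no part in the choice of regions, are set beside the 1 h libraries here. Regions that rose in rank at 1 h had a median percentile of 33.4, 35.2 and 32.4 in untreated cells, 56.2, 65.9 and 60.2 at 30 min, 72.5, 74.8 and 72.4 at 1 h, 72.9, 73.0 and 72.4 at 2 h, and 64.9, 65.3 and 63.1 at 4 h. At 30 min these regions lay between the untreated and the 1 h level in each library, at 2 h they stood close to their 1 h level, and at 4 h they were lower than at 1 h in each library. At 30 min, 2 h and 4 h ranks are over those of the 38431 regions that had a peak in the library, 36514 to 38339 of them. Regions that fell had a median percentile of 68.0, 67.9 and 72.2 in untreated cells, 54.5, 47.1 and 53.1 at 30 min, 38.3, 36.6 and 40.9 at 1 h, 36.1, 37.6 and 39.5 at 2 h, and 41.1, 42.7 and 44.6 at 4 h. The untreated and 1 h values are set by the choice of regions, and the other times share neither of these groups of libraries. Libraries outside such a choice tend to give less extreme values. How much of the middle level at 30 min and of the shift at 4 h follows from this was not tested.

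Gained regions were mostly still open at 2 h. A peak was present in 60.04%, 85.5% and 39.1% of the 1902 gained regions in the 3 libraries at 30 min, in 94.7%, 94.5% and 89.6% at 2 h, and in 80.6%, 77.9% and 51.5% at 4 h. Of all 8749 regions with a peak in 3 of the 6 lists, which include the gained and lost ones, the shares were 66.2%, 73.2% and 26.6% at 30 min, 72.2%, 75.4% and 52.4% at 2 h, and 67.2%, 64.5% and 29.1% at 4 h. Gained regions were above this level in all 6 libraries at 2 h and 4 h, and at 30 min in replicates 2 and 3 but not in replicate 1. Lost regions had a peak in 69.3%, 55.2% and 35.1% of cases at 30 min, in 35.8%, 45.1% and 24.5% at 2 h, and in 40.4%, 39.9% and 18.9% at 4 h. They were below the level of all such regions in all 6 libraries at 2 h and 4 h, whereas at 30 min replicates 1 and 3 were above it. Replicate 3 had the shortest list at 30 min, 2 h and 4 h, with 54168, 66955 and 55777 peaks.

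**Figure D5:**
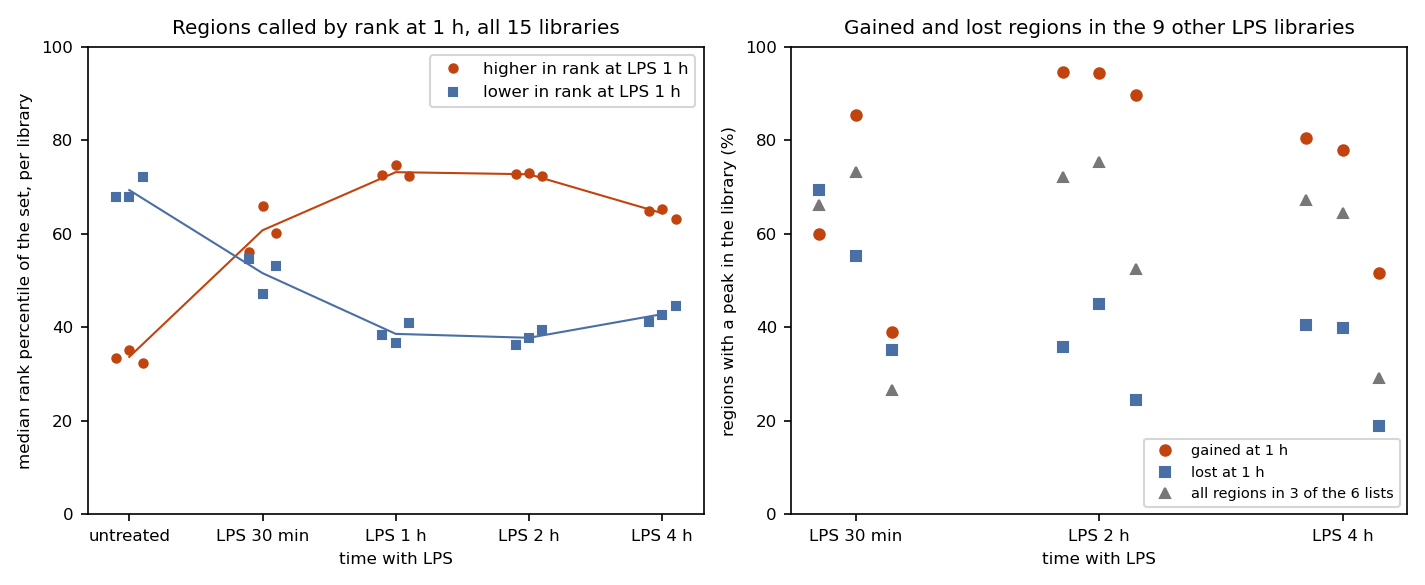
Left, median rank percentile of the regions called higher or lower at LPS 1 h in each of the 15 libraries, with lines through the means of 3 libraries. Right, share of gained and lost regions with a peak in each of the 9 other LPS libraries, beside all regions with a peak in 3 of the 6 lists. At 2 h gained regions had a peak in 89.6% to 94.7% of cases and lost regions in 24.5% to 45.1%.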

How the data were processed

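Reads were aligned with Bowtie 1.1.2 and peaks called with MACS 1.4 on mm9, per the submitters' processing notes. The sources used here do not state their settings, any control, the treatment of duplicates or a shift of reads for the transposase. The authors deposited 1 peak list per library with a score per peak, which was used only to rank and filter peaks within its own list. No header names its scale, and many peaks share the value of 3100 below a maximum of 3233. Whether scores above 3100 mark stronger sites than 3100 itself was not tested. Any pair of the 6 lists had at most 11 intervals in common, so all 6 were treated as separate libraries. Mitochondrial peaks, 2 per list, were left out. Peaks overlapping by 1 bp or more were merged (Python 3.11.15, numpy 2.4.6). Widths and ranks were fitted with limma 3.58.1 in R 4.3.3 with a mean-variance trend, and other summaries were compared with exact permutation tests. The width and rank tests were tested on simulated lists. Regions were named by rule: 8 gained and 8 lost with the highest weakest percentile, and the 5 largest changes per direction of rank and width past an adjusted p of 0.05 with no overlap between groups. The comparison and these rules were chosen with earlier results of these data known. Deviations of same-numbered libraries from their group means correlated at 0.0651, 0.115 and 0.141 for presence, at 0.0516, 0.129 and 0.155 for width and at 0.245, 0.216 and 0.369 for rank, so the numbers, taken from the titles, met the criterion for pairs (every correlation over 0.1) for rank only. All printed values come from fits without the replicate block unless the block is named. The analyses of gene lists, cell type markers and motifs that had been set out need an annotation or genome of build mm9 and were not run, since the available gene table refers to GRCm38.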

Additional observations from a re-analysis of the deposited data

How the results depend on the processing

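Neither depth nor a threshold below the deposited score of 50 can be examined, so weak regions limit every count. The excess of similarity within groups kept its direction under all alternatives (0.0405 to 0.0695 without single libraries), as did the excess of peaks of 10 kb or more (41.3 to 63.8). With a score of 100 or more the difference in covered length was -0.802 Mb, and with lists of equal length -0.45 Mb. Without single libraries it ran from -7.14 to 10.4 Mb, the difference in peak number from -3424 to 9459, in median width from -85.7 to 18.3 bp and in peaks of 5 kb or more from -88.2 to 149.3, so none of these 4 held a direction. A peak in 2 of 3 libraries gave 6353 gained and 4239 lost regions, and bins of 500 bp gave 9905 and 6401 bins. Without single libraries gained regions ran from 2005 to 6072 and lost regions from 1396 to 3437, the looser rule itself adding regions. Requiring 50% of a region to be covered gave 119 wider and 69 narrower regions, no centring 236 and 131, and 1 peak in every list 134 and 64. Without single libraries wider regions ran from 158 to 428, narrower from 72 to 217, higher in rank from 981 to 2593 and lower in rank from 754 to 1704. With the replicate block there were 3575 higher and 3860 lower regions in rank, and 452 wider and 230 narrower ones. For the other summaries the block only coarsens the test (p of 0.25 for peaks of 10 kb or more). No block can enter the counts of gained and lost regions. Apart from the values printed here, the alternatives at the level of the whole comparison stayed within 1.5 times of the main count or on the same side of the threshold. Of 84 values for the named regions under settings other than leaving out a library, 80 kept their call and 4 missed the threshold. Of 120 with 1 library left out, 102 kept it and 18 missed it, and none reversed. Each of these fits merged the remaining lists anew, so a value can belong to a region with other bounds than those printed. The cause of these changes was not tested.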

Other observations

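Changed regions were spread over all chromosomes except Y, which held 23 regions and 0 changes. Gained regions made up from 1.44% of regions on chromosome 8 to 2.67% on chromosome 16 and 2.66% on chromosome 2, and lost regions from 0.795% on chromosome 11 to 2.14% on chromosome X. On chromosome X, unlike on most autosomes, 32 regions were gained and 41 lost among 1916, and the shares of rank-tested regions that rose and fell there were 4.04% and 3.63%. On chromosome 8 64 regions were gained and 72 lost, and 4.18% of rank-tested regions rose while 5.79% fell.

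Few of the regions gained at 1 h lacked a peak at every other time. The patterns below were counted in gained and lost regions only, so they have no share over all regions beside them. The 8749 regions with a peak in 3 of the 6 lists had one in 26.6% to 75.4% of cases per library at the other times. A low count with no peak in all 9 lists is therefore not a trait particular to gained regions as far as tested. Of the 1902, 4 had a peak in none of the 9 other LPS lists and 72 (3.79%) had one in at most 1 of the 6 lists at 2 h and 4 h, while 346 (18.2%) had one in all 9. Another 84 (4.42%) had none at 30 min and one in all 6 later lists. Of the 1305 lost regions, 98 (7.51%) had a peak in none of the 9 other lists, 38 (2.91%) had one in all 3 lists at 30 min and in none later, and 157 (12.03%) had one in at least 5 of the 6 lists at 2 h and 4 h. The 3 libraries at 30 min differed at some long regions, picked here after their values were seen. At chr12:86938279-86990735 the widest peak was 47446 bp in replicate 2, against 3346 and 3515 bp in replicates 1 and 3. At chr10:59739470-59755135, beside the region that narrowed most at 1 h, replicate 2 had at most 2037 bp, against 33662 and 16302 bp. Other long regions went otherwise. At chr11:50001640-50028016 the widest peaks at 30 min were 21387, 15548 and 21039 bp in replicates 1, 2 and 3. At chr13:43879338-43908339 they were 8904, 25596 and 28747 bp.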
